A study of Arabidopsis thaliana with 6 samples.

Results

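The RCI2/PMP3 family of *Arabidopsis thaliana* was followed in guard cell protoplasts (GCPs), which are guard cells freed from their walls. Its 8 loci are *RCI2A* (AT3G05880), *RCI2B* (AT3G05890), AT4G30650, AT4G30660, AT1G57550, AT2G24040, AT2G38905 and AT4G28088. They were found on the array through the transcript accession of each probe and were 8 of 25410 genes with a matched probe, with 1 probe each. The family was selected on the SL and SS signals of AT4G30650, which was higher in SL in these same samples. Its values are therefore given as a description with no test. The other 7 loci were taken by family, and the 6 of them with a probe above background were tested.

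RNA came from GCPs, isolated from mature rosette leaves, of SL plants, kept for 3 weeks under short days and then 2 weeks under long days, and of SS plants, kept for 5 weeks under short days, with 3 samples each. All plants were *gl1* plants of the Columbia ecotype (homozygous for this recessive mutation), grown at 22 to 24 °C. Long days had 16 h of light at 41 µmol m-2 s-1 and short days 8 h at 100 µmol m-2 s-1, so that day length and light intensity cannot be told apart. The sample labels place RNA isolation at ZT16 (hours after lights-on) for SL and at ZT8 for SS. The paper's methods give ZT16 for both. If the labels hold, time of day and photoperiod cannot be told apart. If the paper's time holds, SS plants were in darkness and SL plants at the end of their 16 h of light. Light or darkness at isolation and photoperiod then cannot be told apart. The series description gives 3 independent experiments with separate plant batches, but the labels do not state that a replicate number marks the same experiment in SL and SS.

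RCI2 proteins are very short, strongly hydrophobic proteins of the plasma membrane, related to PMP3 of yeast. Loss of PMP3 hyperpolarizes the yeast plasma membrane and makes the cells sensitive to sodium, and *RCI2A* can stand in for it there. In Arabidopsis, *RCI2A* and *RCI2B* are known as genes induced by cold, dehydration and abscisic acid (ABA), and *RCI2A* limits sodium accumulation under salt. Guard cells respond to ABA with closure, and the potential across their plasma membrane drives the potassium uptake that opens the pore.

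Each sample was hybridized to 1 Agilent array in a single colour, and between 65.3% and 70.7% of the 43603 probes of an array were well above background by the scanner's flag. All 9 listed guard cell markers (among them *KAT1*, *MYB60* and *TGG1*) passed the filter on dim probes. The 7 mesophyll, 3 epidermis and 2 phloem markers listed all passed it too, so that passing does not single out guard cells. Of the 9, 0 were higher and 3 lower in SL in all 3 pairs, against 23.1% and 23.6% of all probes kept. The sum of the 9 normalized signals was between 85081 and 111130 in SL and between 83485 and 139474 in SS. Most of it came from the probe of *TGG1*, with 55061 to 91763 per array. Mesophyll markers moved between the groups. Of 7 such genes 6 were called lower in SL by *limma* with the replicate number as a block (adjusted p between 0.0072 and 0.0286), where 3.15% of all probes kept were called lower, and 0 of the 7 were called without the block. The remaining gene, *CA1*, was higher in SL in all 3 pairs (ratios 1.24, 1.24 and 1.34) and was not called (*limma* adjusted p = 0.0724 with the block). The sum of the 7 signals was between 37220 and 69163 in SL and between 73611 and 145395 in SS. Most of it came from the brightest probes, those of *RBCS1A*, *CAB3* and *RBCS3B*. None of the 3 epidermis and 2 phloem markers was called. The part of these shifts in the values below was not tested, and in bulk RNA fewer cells of a type and less RNA per cell cannot be told apart.

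Values are normalized signals, that is, background-corrected and quantile-normalized intensities. They can be compared between arrays for 1 probe, but not between probes, and so the levels of the 8 genes have no order. Differences are given as log2 of SL over SS. A gene was called at a *limma* adjusted p under 0.05 over all 28852 probes kept, first without and then with the replicate number as a block.

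AT4G30650, the locus that led to this family, gave signals of 6153, 3066 and 4278 in SL (replicates 1 to 3), against 2288, 2148 and 1680 in SS. The groups did not overlap, and replicate 1 was the highest in both groups. Means were 4499 ± 1555 in SL and 2038 ± 318 in SS (SD, n = 3 each). The SL/SS ratio was 2.69, 1.43 and 2.55 in the 3 pairs, so that the pair of replicate 2 showed the smallest excess. The log2 difference was 1.10 (SE 0.27 without the block and 0.19 with it), and 9 of 18001 genes had a larger one. As the gene was chosen for this difference, its size, SE and rank only describe it and are no separate result. Groups that did not overlap, with SL higher, were found for 4.02% of all probes kept.

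**Figure D1:**
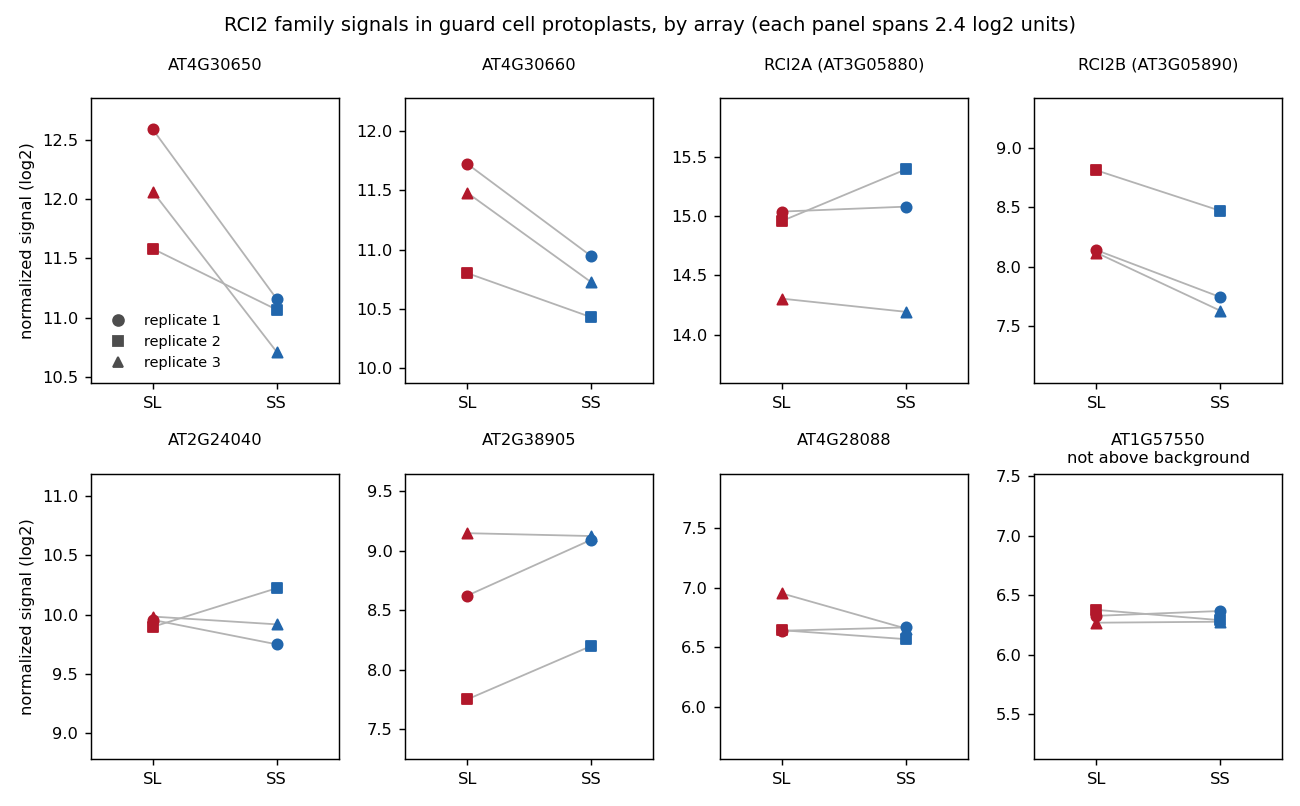
Normalized signal (log2) of each RCI2 gene on each array, with SL on the left and SS on the right. Symbols mark the replicate, grey lines join the arrays of the same number, and every panel spans the same number of log2 units. AT4G30650, AT4G30660 and *RCI2B* were higher in SL in all 3 pairs, whereas the lines of the other genes run in both directions or stay flat.

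AT4G30660 lies next to AT4G30650 on chromosome 4 and is its direct neighbour in the annotation. Its signals were 3375, 1785 and 2851 in SL, against 1970, 1380 and 1692 in SS. SL was higher in all 3 pairs, but the groups overlapped, because SL replicate 2 lay below SS replicate 1. Means were 2670 ± 810 in SL and 1681 ± 295 in SS (SD, n = 3 each), and the pair ratios were 1.71, 1.29 and 1.68.

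Without the block, AT4G30660 was not called (log2 difference 0.63, SE 0.27, *limma* adjusted p = 1.00, exact permutation test of the 6 arrays, two-sided, p = 0.2). With the replicate block it was called as higher in SL (SE 0.11, *limma* adjusted p = 0.0373), with a 95% interval of the fold from 1.29 to 1.86. It was the only 1 of the 6 tested members to be called, in a fit that called 4.5% of all probes kept, 1.34% as higher and 3.15% as lower in SL. The call was lost without the pair of replicate 1 (*limma* adjusted p = 0.172) or of replicate 2 (0.149). It was also lost with a scaling to the 75th percentile of each array instead of quantile normalization (*limma* adjusted p = 0.0965, or 0.0615 from the processed signal). Among all probes, these fits called 37, 0, 47 and 561 in the same order, against 1297 in the block fit above. Of 18001 genes, 119 had a larger log2 difference.

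The difference was not of one size in the 2 neighbours. AT4G30650 exceeded AT4G30660 in its log2 difference by 0.65, 0.14 and 0.60 in the 3 pairs. The pair of replicate 2 was thus the smallest for both genes and also the one in which they were most alike. Because AT4G30650 was chosen for its difference, this gap was not tested. The probe sequences were not used here, so that binding of the transcript of one gene by the probe of the other was not tested either.

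*RCI2A* and *RCI2B* are likewise neighbours, on chromosome 3. *RCI2B* gave 282, 449 and 278 in SL, against 214, 354 and 198 in SS. SL was higher in every pair, by ratios of 1.32, 1.27 and 1.40, which is the narrowest range of ratios among the 3 members that were higher in all pairs. The range between replicate numbers (0.77 for the pair means on the log2 scale) was wider than the difference between the groups. The SL and the SS array of replicate 2 both lay above all 4 arrays of the other replicates.

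For *RCI2B* the log2 difference was 0.41 (SE 0.29, *limma* adjusted p = 1.00 without the block). With the block the SE was 0.08 and the *limma* adjusted p 0.0519, just over the threshold, with an interval of the fold from 1.15 to 1.53. By *limma* it was called under 0 of the 24 alternatives tried.

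*RCI2A*, the member with the best known role in cold and salt responses, gave 33614, 31815 and 20232 in SL, against 34596, 43007 and 18736 in SS. It was lower in SL in the pairs of replicates 1 and 2 and higher in that of replicate 3. Replicate 3 was the lowest of its group in both conditions. Means were 28554 ± 7263 in SL and 32113 ± 12325 in SS (SD, n = 3 each).

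The log2 difference of *RCI2A* was -0.12 (SE 0.35, *limma* adjusted p = 1.00) without the block, with an interval of the fold from 0.515 to 1.64. With the block the *limma* adjusted p was 0.581 and the interval was 0.748 to 1.13, so that a doubling or halving lay outside it. The direction depended on the scaling, as it was 0.08 with normexp scaled to the 75th percentile and 0.15 with the scanner's processed signal scaled in the same way. *RCI2B* exceeded *RCI2A* in its log2 difference by 0.44, 0.78 and 0.38 in the 3 pairs (mean 0.53 ± 0.215, SD, n = 3 pairs). Permuting the group labels of the within-array difference did not separate the groups (exact permutation test, two-sided, p = 0.2, smallest possible p 0.1).

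**Figure D2:**
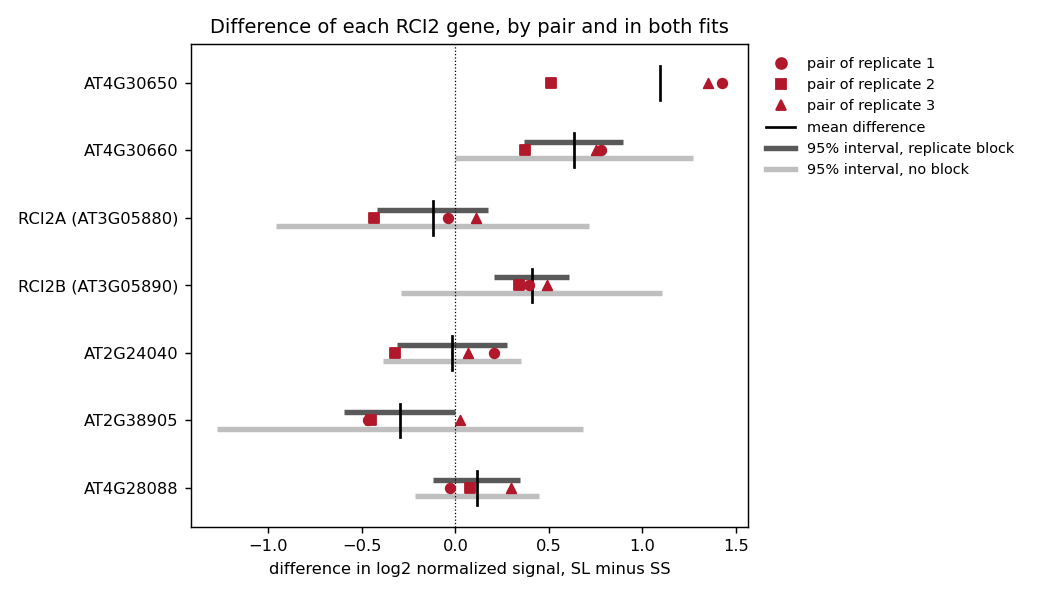
Difference in log2 normalized signal, SL minus SS, for the 7 RCI2 genes above background. Symbols are the 3 pairs and black bars the mean difference. Grey bars are 95% intervals of the *limma* fit with the replicate block (dark) and without it (light), and are left out for AT4G30650. With the block, the intervals of AT4G30660 (fold 1.29 to 1.86) and *RCI2B* (1.15 to 1.53) lay above 0 on the log2 axis and that of AT2G38905 (0.662 to 0.998) lay just below it.

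The remaining members showed no common direction. AT2G24040 gave 993, 953 and 1012 in SL, against 861, 1194 and 967 in SS. The SL arrays lay close together, within the range of the SS arrays. The log2 difference was -0.02 (SE 0.15, *limma* adjusted p = 1.00), with an interval of the fold from 0.764 to 1.28.

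AT2G38905 gave 394, 215 and 568 in SL, against 546, 294 and 558 in SS. It was lower in SL in the pairs of replicates 1 and 2 (ratios 0.722 and 0.732) and nearly equal in that of replicate 3 (ratio 1.02). Its log2 difference was -0.30 (SE 0.41, *limma* adjusted p = 1.00 without the block and 0.204 with it). Without the pair of replicate 3, the nearly equal one, the block fit called it as lower (log2 difference -0.47, *limma* adjusted p = 0.036). That fit called 2630 of 29800 probes, 1230 of them as higher in SL.

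AT4G28088 was dim, with median pixel intensities between 66 and 114, although all 6 spots were flagged as well above background and exceeded the 95th percentile of the negative controls of their array. Its normalized signals were 99.6, 99.9 and 124 in SL, against 101, 94.8 and 101 in SS. SL replicate 3 stood above the other arrays, which lay close together. The log2 difference was 0.11 (SE 0.14, *limma* adjusted p = 1.00 without the block and 0.509 with it). At such intensities the background offset sets the scale, and the difference was 0.25 with an offset of 0 and 0.44 with the deposited series matrix values.

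AT1G57550 was not well above background on any of the 6 arrays. Its median pixel intensities were 50, 69 and 60 in SL, against 52, 66 and 60 in SS, while the medians of the 153 negative controls were 48, 64 and 66 in SL and 48, 65 and 62 in SS. Of its 6 spots, 1 exceeded the 95th percentile of the controls. No fold change is given.

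Over the 6 tested members with a probe above background, 1 was called as higher and 0 as lower with the block, and 0 in either direction without it, where *limma* called 0% of all probes kept and none of these 6 had an unadjusted p under 0.05 (4.11% of all probes did). The median of their log2 differences was 0.05, against 0.01 over all 18001 genes. Of the 6, 2 were higher in all 3 pairs and 0 were lower in all 3 pairs, and 23.1% and 23.6% of all probes kept did so. For 0 of the 6 did the 3 SL arrays lie apart from the 3 SS arrays, against 4.02% of probes with SL higher and 4.74% with SL lower.

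The members also differed between replicate numbers. The range of the pair means (the mean log2 signal of SL and SS of a replicate number) was 1.16 for AT2G38905, 0.93 for *RCI2A*, 0.77 for *RCI2B*, 0.72 for AT4G30660 and 0.55 for AT4G30650, against a median of 0.43 over all genes, which is given for reference and was not tested. It was 0.21 for AT2G24040 and 0.20 for AT4G28088. The replicate numbers were not ordered alike in the members. Replicate 2 was the highest pair for *RCI2A*, *RCI2B* and AT2G24040 and the lowest for AT4G30650, AT4G30660, AT2G38905 and AT4G28088.

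The genes on both sides of AT4G30650 were read in the same fit, to see whether the difference was shared along the chromosome. The nearest 3 annotated genes on one side were AT4G30640, AT4G30630 and AT4G30620. AT4G30640 was not well above background on any array. AT4G30630 averaged 1404 in SL and 1254 in SS and had a log2 difference of 0.17 (SE 0.08 and *limma* adjusted p = 0.28 with the block). AT4G30620 averaged 326 in SL and 431 in SS, with a log2 difference of -0.41 and a *limma* adjusted p of 0.0622 with the block, and so pointed the other way from AT4G30650 in all 3 pairs. On the other side, AT4G30660 was followed by AT4G08305, a long non-coding RNA gene overlapping AT4G30660 and with no matched probe, and by AT4G30662, which was not well above background on any array. None of these neighbours other than AT4G30660 was called with or without the block.

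**Figure D3:**
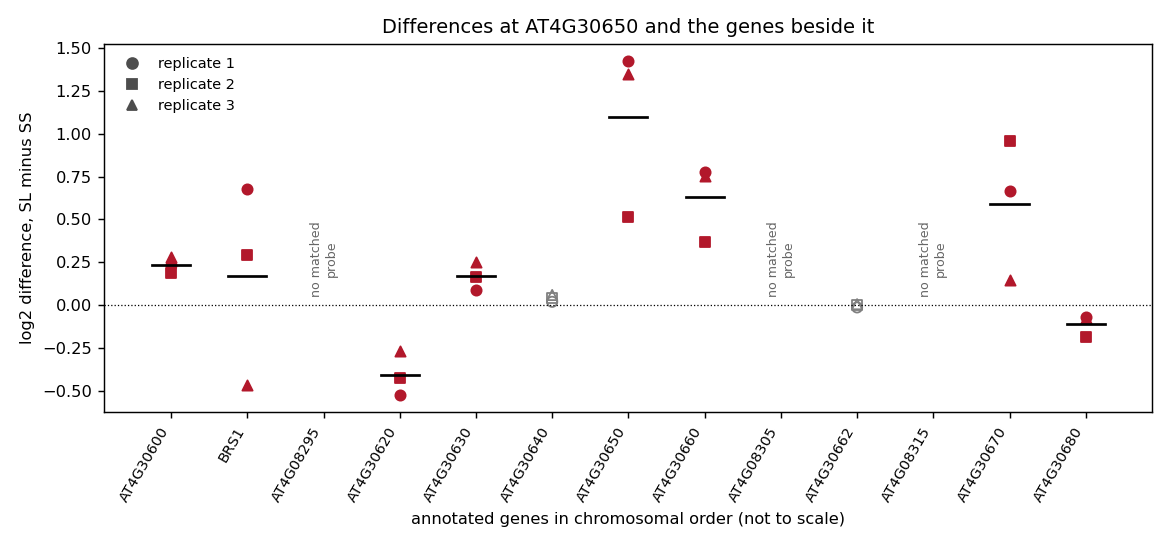
Difference in log2 normalized signal, SL minus SS, at AT4G30650 and 6 annotated genes on each side, in chromosomal order and not to scale. Symbols are the 3 pairs and black bars the mean. Open grey symbols are probes not kept by the filter on dim probes. AT4G30650 has a mean of 1.10 and AT4G30660 one of 0.63. Of the nearest 3 on the left, AT4G30630 (mean 0.17) and AT4G30620 (mean -0.41) were kept. Of the nearest 3 on the right, none but AT4G30660 has a kept probe, and AT4G30670, the fifth on the right, has a mean of 0.59.

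The course of AT4G30650 over the 6 arrays was compared with that of 17992 other genes by Pearson's correlation, which is given as a description, since arrays of the same number vary together. The closest 5 genes were *EB1C* (a microtubule end-binding protein, r = 0.995), AT1G15140 (r = 0.988), AT5G57120 (r = 0.984), AT5G63490 (r = 0.983) and AT3G15460 (r = 0.980). Their log2 differences were between 0.12 and 0.28. That SL lay above SS without overlap in all 5 follows from how they were picked, since AT4G30650 itself was selected on that pattern, and is no separate result. Within the family AT4G30660 was the closest, at r = 0.893, with 116 genes closer. The values were 0.37 for AT4G28088, 0.28 for *RCI2B*, 0.07 for *RCI2A*, -0.01 for AT2G24040 and -0.08 for AT2G38905.

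The 5 genes most like *RCI2A* were AT1G80890, AT1G55210, *JAZ12* (a repressor of jasmonate responses), AT1G51200 and *AAC3* (a mitochondrial ADP/ATP carrier), at r between 0.993 and 0.998. SL and SS overlapped in all 5, as for *RCI2A* itself. *RCI2B*, its neighbour, was at 0.488, with 4684 genes closer.

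Since *RCI2A* and *RCI2B* are known for cold and ABA responses, 21 other genes induced by cold or ABA were read from the same fit. Of these, 19 had a probe above the filter. With and without the block 0 of the 19 were called in either direction (4.5% and 0% of all probes kept). Without the block, 1 had an unadjusted *limma* p under 0.05, as did 4.11% of all probes kept. Their median log2 difference was 0.05, against 0.01 over all genes. Of the 19, 4 were higher and 3 lower in all 3 pairs (23.1% and 23.6% of all probes kept). In 0 were SL and SS arrays separate, against 4.02% of probes with SL higher and 4.74% with SL lower. At one end were *LTI78* (a drought and cold gene also called *RD29A*), with a log2 difference of 0.71, and the dehydrin *ERD10*, with 0.36. At the other end stood *CBF2* (-1.04) and *DREB1A* (-0.99), transcription factors that switch on cold-induced genes. *DREB1A* averaged 200 in SL and 365 in SS, and *CBF2* averaged 972 in SL and 1790 in SS. For *DREB1A*, the log2 difference was -1.80 and -1.17 in the pairs of replicates 1 and 2 and 0.00 in that of replicate 3.

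Of 12 genes of sodium homeostasis, 11 were above the filter. Of these, 0 were called with or without the block (4.5% and 0% of all probes kept). Without the block, 1 had an unadjusted *limma* p under 0.05 (4.11% of all probes kept). Their median log2 difference was 0.05. *SOS3*, a calcium sensor of the salt response, averaged 2524 in SL and 1881 in SS. It was the 1 gene of the list with separate SL and SS arrays, where 4.02% of all probes kept were separate with SL higher. Its log2 difference was 0.42 (*limma* adjusted p = 0.0531 with the block). *NHX1*, a vacuolar sodium/proton exchanger, followed with 0.28. The lowest differences were those of *HA1*, a plasma membrane proton pump (-0.42), and of *CBL10*, a calcium sensor (-0.29).

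**Figure D4:**
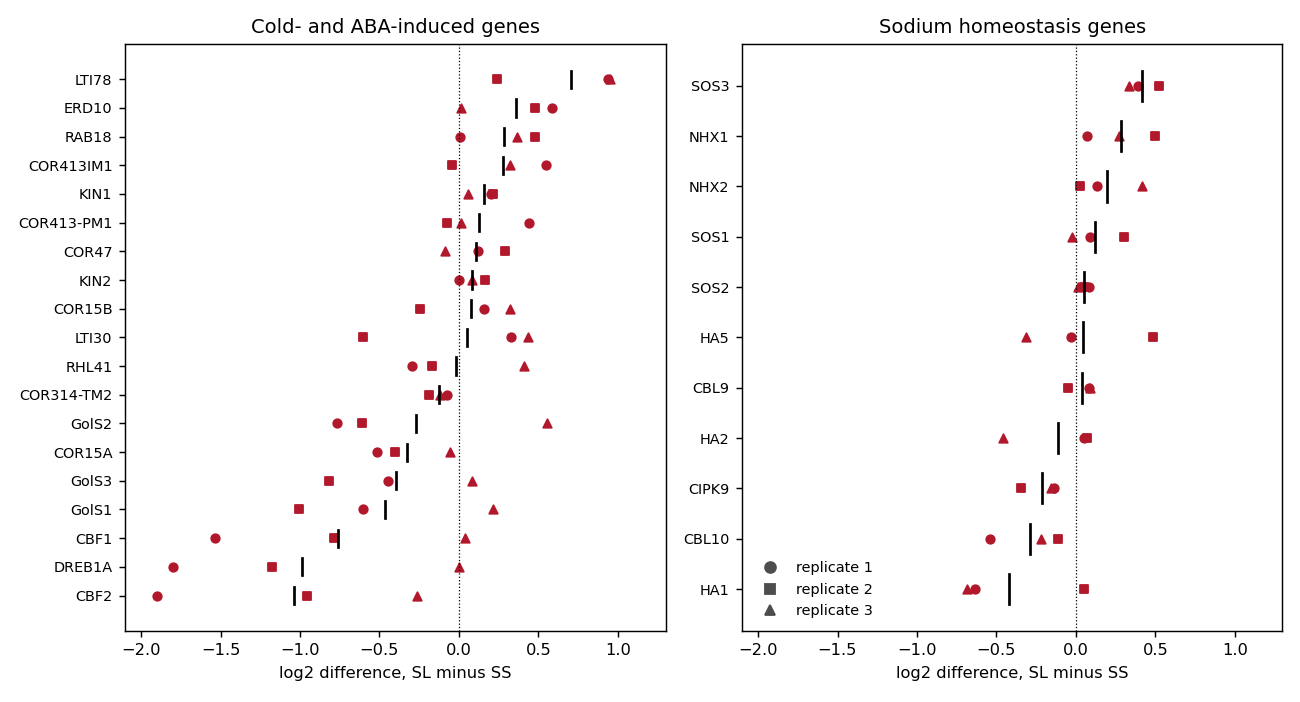
Difference in log2 normalized signal, SL minus SS, of the cold- and ABA-induced genes (left) and of the sodium homeostasis genes (right) above the filter. Symbols are the 3 pairs and black bars the mean. *LTI78* (0.71) and *CBF2* (-1.04) mark the ends of the first list and *SOS3* (0.42) and *HA1* (-0.42) those of the second.

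The differences of the members were recomputed under 24 alternatives. AT4G30650 stayed between 0.84 and 1.38, AT4G30660 between 0.44 and 0.89, *RCI2B* between 0.18 and 0.68 and AT4G28088 between 0.01 and 0.44, with no change of sign. For AT4G30650 this is a description only, since the gene was chosen for its difference in these arrays. *RCI2A*, AT2G24040 and AT2G38905 changed sign under at least 1 of them.

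**Figure D5:**
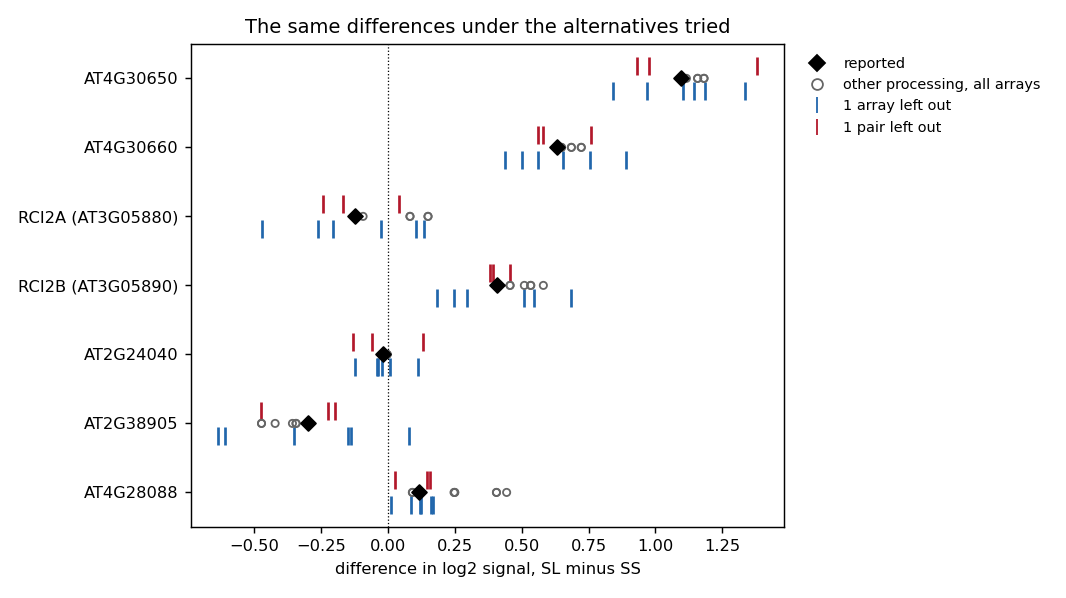
Difference in log2 signal, SL minus SS, of the 7 RCI2 genes above background under each alternative. Diamonds are the reported values, circles other ways of processing all 6 arrays, blue ticks fits without 1 array and red ticks fits with the replicate block and without 1 pair. AT4G30650 (0.84 to 1.38), AT4G30660 (0.44 to 0.89) and *RCI2B* (0.18 to 0.68) stayed above 0, while *RCI2A* ranged from -0.47 to 0.15.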

How the data were processed

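RNA from GCPs was measured on 6 single-colour Agilent arrays, 3 from SL and 3 from SS plants. The authors extracted the spots with Feature Extraction 11.5.1.1, and the deposited intensity values (median pixel and background intensity, and a processed intensity) were not normalized between arrays. The paper names *limma* for normalization but no method. Median intensities were background-corrected here by normexp (offset 50) and then quantile-normalized, using limma 3.58.1 under R 4.3.3. Spots with an outlier flag (3 to 7 per array) were left out. The filter kept 28852 of 43603 probes, those well above background throughout SL or throughout SS, and the brightest probe stood for a gene. Probes were matched to genes by RefSeq accession through a table of assembly TAIR10.1 (34348 probes), while the arrays name TAIR10, so no coordinates are given.

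SL and SS were compared by limma with Benjamini-Hochberg adjustment. Replicate numbers were taken to pair the samples because deviations from the group means correlated at 0.710, 0.855 and 0.739 across probes in same-numbered arrays. Both arrays of replicate 1 were on slide 1 and all arrays of replicates 2 and 3 on slide 2, so that replicate 1 and slide cannot be told apart. What else same-numbered arrays share (plants, isolation, labelling or hybridization) was not tested. The number of arrays limits the precision. Both fits were run on simulated data with the pairing by replicate number built in, so that the pairing itself was not tested there. Members and lists were chosen with earlier results of these data known. The named genes are all members, the 3 nearest genes on each side of AT4G30650, the 5 genes most correlated with AT4G30650 and with *RCI2A*, and the called or else 2 highest and 2 lowest genes of each list. The alternatives were other backgrounds, normalizations and filters, the methods' t-test, blocks, and leaving out arrays or pairs. No deposited probe or protein sequence was used here.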

Additional observations from a re-analysis of the deposited data

How the results depend on the processing

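Without the block, limma called 0 probes under each alternative (1185 with an unadjusted p under 0.05 in the reported fit), and the methods' t-test gave 1365 with an unadjusted p under 0.05 and 0 after adjustment. With the replicate block limma called 1297, with the block and quantile normalization by slide 1091, with the block and the processed signal scaled to the 75th percentile 561, and with the block and normexp scaled to the 75th percentile 47. Leaving out a pair from the block fit gave between 0 (without replicate 2) and 2630 (without replicate 3), and 37 without replicate 1. The cause was not tested.

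Of the members, the block called 1 (AT4G30660), also with quantile normalization by slide (1), 0 with both scalings to the 75th percentile, and between 0 and 2 without 1 pair. The limma adjusted p of AT4G30660 with the block was 0.0373, 0.0438 by slide, 0.0965 with normexp and 0.0615 with the processed signal scaled to the 75th percentile, and between 0.037 (without replicate 3) and 0.172 (without replicate 1). SL and SS arrays were separate in 1 member with the processed signal scaled to the 75th percentile, with or without the block, in 0 to 1 without 1 array and in 1 to 3 without 1 pair. With fewer arrays, groups separate more easily, so that the counts without an array or a pair cannot be set beside that of the reported fit. The shares over all probes under these alternatives are not given here. With the block and without replicate 3, 8 of the cold and ABA genes were called. *ERD10* was called as higher and *CBF1*, *CBF2*, *DREB1A*, *GolS1*, *GolS2*, *GolS3* and *COR15A* as lower. In the same fit 1 gene of sodium homeostasis (*SOS3*) was called, against 0 of either list under the other alternatives. That fit called 2630 of 29800 probes, 1230 of them as higher in SL.

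*RCI2A* (AT3G05880) turned to 0.082 (normexp scaled to the 75th percentile, where the median difference of all probes was 0.081) and 0.15 (processed signal), each with and without the block, and lay between -0.47 and 0.13 without 1 array and between -0.24 and 0.041 without 1 pair. AT2G24040 lay between -0.12 and 0.11 without 1 array and between -0.13 and 0.13 without 1 pair, and AT2G38905 between -0.64 and 0.080 without 1 array. The block changed no other member's call.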

Other observations

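Beyond the 3 nearest genes, AT4G30670 and AT4G30600 were looked at after their values had been seen. AT4G30670 averaged 730 in SL and 478 in SS, with a log2 difference of 0.59 and SL/SS ratios of 1.59, 1.94 and 1.10 in the 3 pairs. Its pair of replicate 2 was the largest, whereas for AT4G30650 that pair was the smallest. The limma adjusted p with the block was 0.0932. AT4G30600 averaged 14447 in SL and 12293 in SS, its groups did not overlap, and the log2 difference was 0.23 (limma adjusted p = 0.154 with the block).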
